A study of Mus musculus with 4 samples.

Results

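The genes of the platelet-derived growth factor (PDGF) system were followed in single-cell RNA sequencing of mouse brown adipose tissue (BAT). They are the 4 ligand genes Pdgfa, Pdgfb, Pdgfc and Pdgfd and the 2 receptor genes Pdgfra and Pdgfrb, taken by symbol from the 32285 genes in the count tables. The cells were those of the stromal vascular fraction (SVF), which is what remains of collagenase-digested tissue once adipocytes are removed. All 6 genes were detected in each of the 4 libraries. The libraries came from WT mice (C57BL6/J, 10 weeks), from leptin receptor mutant db/db mice aged 8 or 16 weeks, which become obese and diabetic, and from mice on a high-fat diet (HFD, C57BL6/J with a labelled age of 10 weeks, at which the diet began by the study's methods). The labels give the strain of the db/db mice as C57BL6/J too, and all mice were males by the methods. Each group was 1 library, made by the study's legends from a pool of several mice. No difference between groups could therefore be set against the spread between animals, and no test was made. Every interval below is a 95% interval for counting error only.

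PDGFs are secreted dimers that bind receptor tyrosine kinases on neighbouring cells. PDGF-A and PDGF-C act through PDGFRα, PDGF-D mainly through PDGFRβ, and PDGF-B through both. PDGF-C and PDGF-D are released in a latent form that extracellular proteases activate. In adipose tissue Pdgfra is a classical marker of fibroblasts and adipocyte progenitors, while Pdgfrb marks pericytes and other mural cells as well as part of the progenitors, and endothelial PDGF-B recruits mural cells to vessels.

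To separate senders from receivers, cells were gated on raw UMIs (unique molecular identifiers, 1 per captured transcript molecule) of marker lists that held none of the 6 genes. Of 28887 cells that passed the quality limits, 8296 were macrophage-gated (Csf1r, C1qa, Adgre1 and others), 2622 endothelial-gated (Cldn5, Cdh5, Pecam1 and others), 14058 stromal-gated (Col1a1, Dcn, Lum and others) and 79 mural-gated (Rgs5, Kcnj8, Notch3 and others). The libraries did not hold these cells in like numbers. Endothelial-gated cells numbered 9 in WT, 75 in 8-week db/db, 1305 in 16-week db/db and 1233 in HFD, and stromal-gated cells numbered 4372, 6836, 1190 and 1660 in the same order. A cell sort preceded capture by the study's methods, so these numbers were not read as numbers in the tissue. As the gates required, the stromal list reached 27985 to 32364 CPM (UMIs of a gene or list per 1000000 UMIs of the gated cells) in stromal-gated cells and at most 664 CPM in macrophage-gated cells. Between 31.3% (HFD) and 89.5% (16-week db/db) of barcodes were kept, and 7 to 25 kept barcodes were shared by any pair of libraries. The 16-week db/db library stood apart in that Xist was found in 37.7% of its cells, against at most 0.421% in the others, which goes against the stated sex. Each obese library was compared with WT on its own, so its values rest on no other obese library, and the 3 comparisons share the WT library.

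Next, the source of each gene's UMIs was examined. The receptors lay mostly in stromal-gated cells, which held 93.7% to 98.7% of Pdgfra UMIs and 75.7% to 98.9% of Pdgfrb UMIs. Of the rest of Pdgfrb, mural-gated cells held 8.26% in 16-week db/db, and in HFD ungated cells held 14.3% and endothelial-gated cells 5.39%. Pdgfb was divided between macrophages and endothelial cells. Macrophage-gated cells held 72.5% of Pdgfb UMIs in WT and 74.1% in 8-week db/db, while endothelial-gated cells held 45.6% in 16-week db/db and 53.4% in HFD, the libraries with over 1000 endothelial-gated cells. Pdgfa lay mostly in macrophage-gated cells in all 4 libraries (54.9% to 82.2%). Pdgfc lay in stromal and macrophage-gated cells, and Pdgfd in stromal and, where they were present, endothelial-gated cells.

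**Figure D1:**
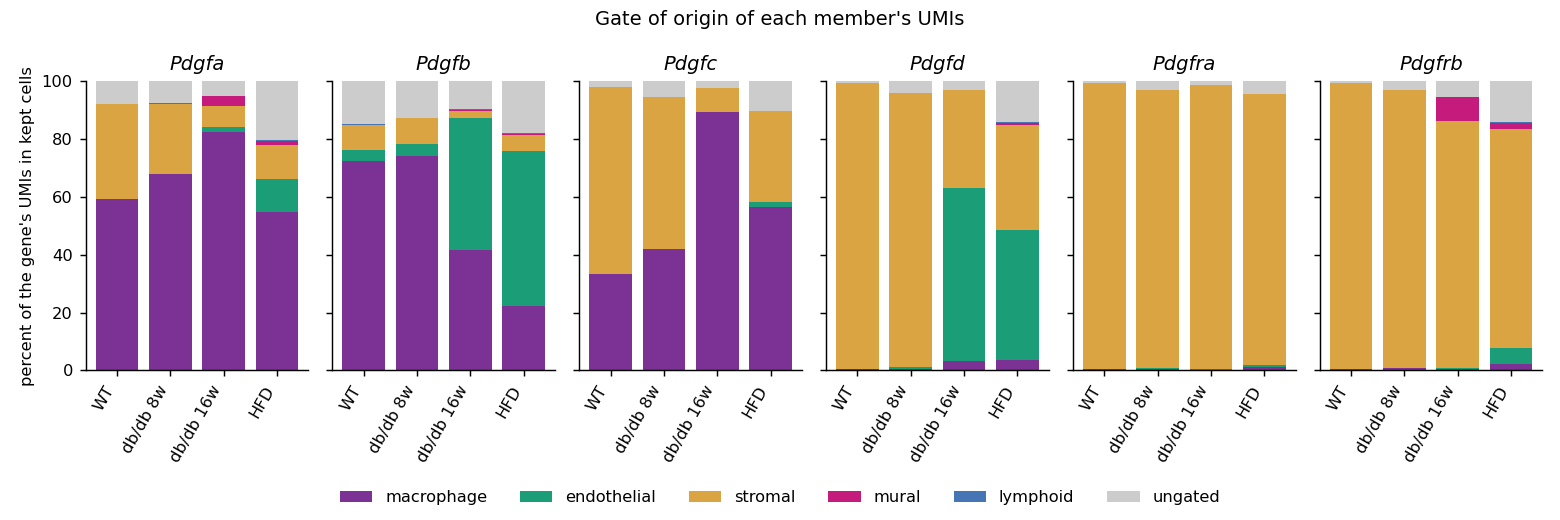
Percent of each gene's UMIs in kept cells by gate (colours), for the 4 libraries on the x axis, 1 panel per gene; 8w and 16w stand for weeks of age. Stromal-gated cells fill most of the Pdgfra and Pdgfrb bars, and the endothelial part of the Pdgfb and Pdgfd bars is large only in 16-week db/db and HFD.

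The receivers were examined first. In stromal-gated cells Pdgfra, the receptor for PDGF-A and PDGF-C, stood at 652 CPM in WT (22964 UMIs), 625 CPM in 8-week db/db (18110 UMIs), 701 CPM in 16-week db/db (3230 UMIs) and 470 CPM in HFD (4385 UMIs). The db/db libraries lay close to WT on either side of it, and HFD was the lowest. The log2 ratio to WT was -0.06 (-0.09 to -0.03) in 8-week db/db, 0.10 (0.05 to 0.16) in 16-week db/db and -0.47 (-0.52 to -0.42) in HFD. No library was 2-fold away from WT in the gate as a whole. Once each cell was thinned to 1000 UMIs, 47.4% of stromal-gated cells in WT held a Pdgfra UMI (45.9 to 49.0), 44.0% in 8-week db/db (42.7 to 45.4), 50.0% in 16-week db/db (46.9 to 53.0) and 36.3% in HFD (34.0 to 38.7). Thinning left out 112, 1413, 111 and 1 shallower cells. The shares before thinning were 88.9%, 69.1%, 79.1% and 81.5%, while the median cell held 6884, 3042, 2862 and 5104.5 UMIs. Lymphoid-gated cells, which should lack both receptors, gave 0 thinned cells with a Pdgfra UMI in every library, of 21, 122, 45 and 30, which by a floor of 3 cells allows shares of up to 14.3%, 2.46%, 6.67% and 10.0%.

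Pdgfrb, the receptor for PDGF-B and PDGF-D, was higher in the stromal-gated cells of every obese library. It stood at 110 CPM in WT (3875 UMIs), 181 CPM in 8-week db/db (5256 UMIs), 284 CPM in 16-week db/db (1311 UMIs) and 188 CPM in HFD (1756 UMIs). The log2 ratio to WT was 0.72 (0.66 to 0.78), 1.37 (1.28 to 1.46) and 0.78 (0.69 to 0.86). Only 16-week db/db was past 2-fold. The thinned share of cells with a Pdgfrb UMI was 11.9% in WT, 16.0% in 8-week db/db, 27.1% in 16-week db/db and 17.3% in HFD, and the unthinned shares were 50.4%, 40.2%, 52.9% and 57.8%. The unthinned order of WT and 8-week db/db was opposite to that of the levels, and WT cells were more than 2-fold deeper at the median. Of lymphoid-gated cells, 1 of 122 in 8-week db/db and 0 in the other libraries held a Pdgfrb UMI after thinning.

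Pdgfrb also made up a larger part of the receptor UMIs of stromal-gated cells: 14.4% in WT (14.0 to 14.9), 22.5% in 8-week db/db (22.0 to 23.0), 28.9% in 16-week db/db (27.6 to 30.2) and 28.6% in HFD (27.5 to 29.7). Mural-list genes moved with it, at 17.0 CPM in the stromal-gated cells of WT, 72.3 CPM in 8-week db/db, 274 CPM in 16-week db/db and 272 CPM in HFD, and their part in the result was not tested. The mural-gated cells themselves carried the highest Pdgfrb levels, 1790 CPM in 16-week db/db (127 UMIs in 48 cells) and 527 CPM in HFD (52 UMIs in 28 cells), whereas WT and 8-week db/db held only 2 and 1 such cells. In these mural-gated cells Pdgfra gave 1 UMI in 16-week db/db and 0 in HFD. UMIs of both receptors were found together under single stromal-gated barcodes, from which doublets were not removed. Predicted doublets were 8.51% of stromal-gated cells in WT, 17.4% in 8-week db/db, 8.57% in 16-week db/db and 14.5% in HFD. Their part in the shared detection was not tested. At 2000 UMIs per cell, 23.8% of cells with a Pdgfra UMI also held a Pdgfrb UMI in WT, against 18.0% of cells with none, and the pairs were 32.0% and 25.0% in 8-week db/db, 37.6% and 40.7% in 16-week db/db, and 33.5% and 26.1% in HFD. The cells with and without a Pdgfra UMI had overlapping intervals only in 16-week db/db.

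**Figure D2:**
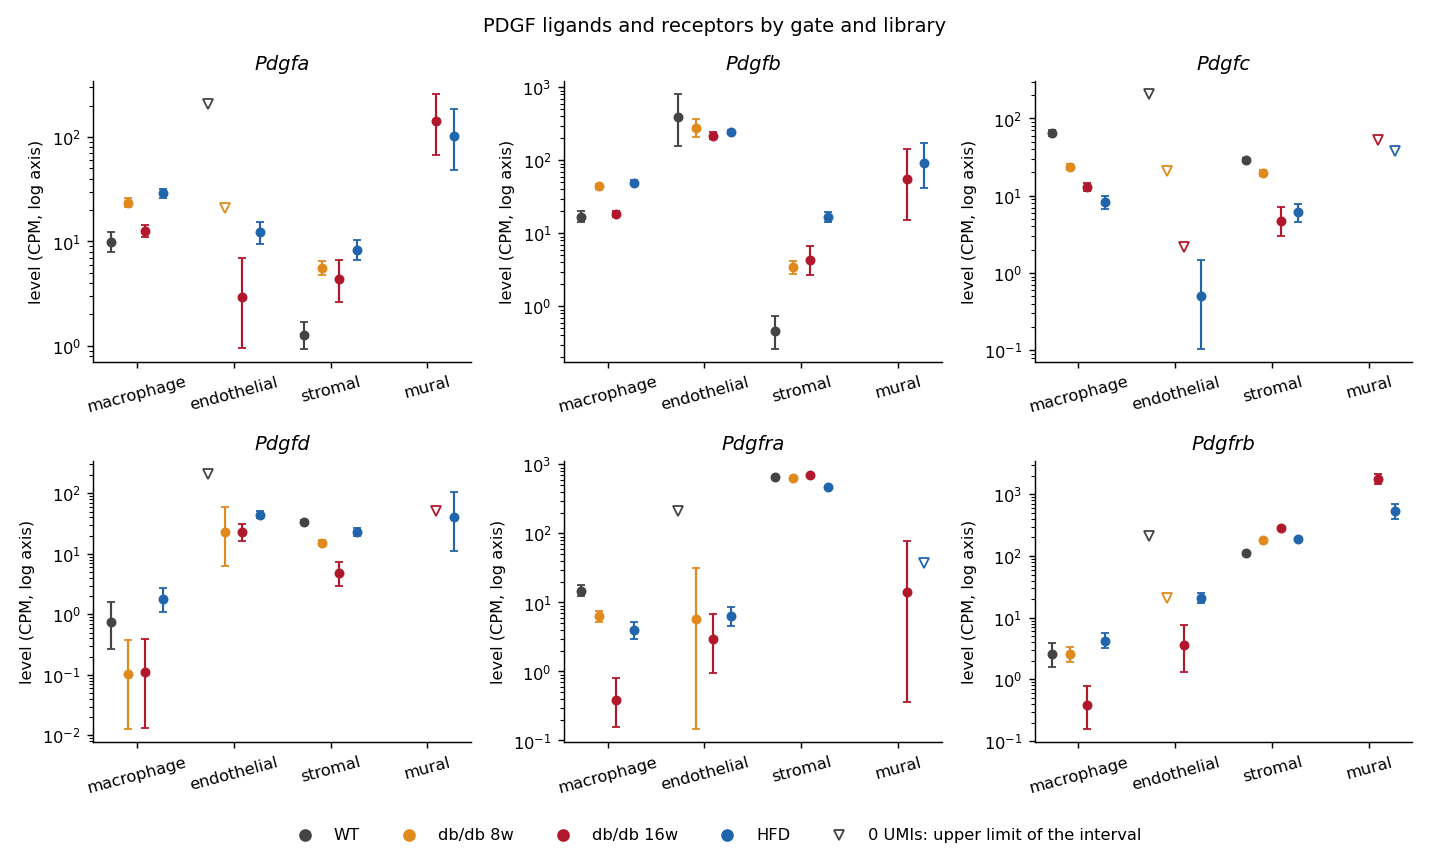
Level in CPM (log axis) of each gene by gate and library, with 95% counting intervals. Open triangles give the upper limit where no UMI was found, and groups under 8 cells are not drawn. Pdgfra sits between 470 and 701 CPM in stromal-gated cells, and Pdgfrb is highest in mural-gated cells.

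To find out whether the receptor levels belonged to particular stromal cells, the gate was divided by markers into Pi16 progenitor-like cells (Pi16, Dpp4, Cd55, Sema3c, Anxa3) and Col15a1 preadipocyte-like cells (Col15a1, Col4a1, Col4a2, Icam1, Cxcl14). The Pi16 progenitor-like cells made up 71.1% of stromal-gated cells in WT, 26.4% in 8-week db/db, 2.61% in 16-week db/db (31 cells) and 10.6% in HFD. Within Col15a1 preadipocyte-like cells Pdgfrb was 165 CPM in WT, 241 CPM in 8-week db/db, 290 CPM in 16-week db/db and 204 CPM in HFD, with log2 ratios to WT of 0.55 (0.44 to 0.65), 0.82 (0.70 to 0.94) and 0.31 (0.20 to 0.43). It was thus higher than in WT in this sub-gate too, by less than in the whole gate. Within Pi16 progenitor-like cells Pdgfrb was instead lower than in WT: 95.4 CPM in WT, 81.9 CPM in 8-week db/db and 59.1 CPM in HFD, with 2 UMIs in 16-week db/db. With the sub-gates weighted as in WT, an alternative chosen after seeing the data, the log2 ratio of Pdgfrb to WT became 0.08 in 8-week db/db and -0.27 in HFD.

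Pdgfra behaved otherwise. In Col15a1 preadipocyte-like cells it was lower than in WT in all 3 obese libraries (825 CPM in WT, then 706, 699 and 496 CPM). In Pi16 progenitor-like cells it was 597 CPM in WT, 455 CPM in 8-week db/db, 830 CPM in 16-week db/db (62 UMIs) and 234 CPM in HFD. The lower level in HFD was therefore present in both sub-gates, with log2 ratios to WT of -0.73 (-0.79 to -0.67) and -1.35 (-1.57 to -1.14). With the sub-gates weighted as in WT the log2 ratio of Pdgfra in HFD became -1.12, past 2-fold. Within WT, Pdgfra and Pdgfrb were both lower in Pi16 progenitor-like than in Col15a1 preadipocyte-like cells (log2 ratios of -0.47 and -0.79).

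**Figure D3:**
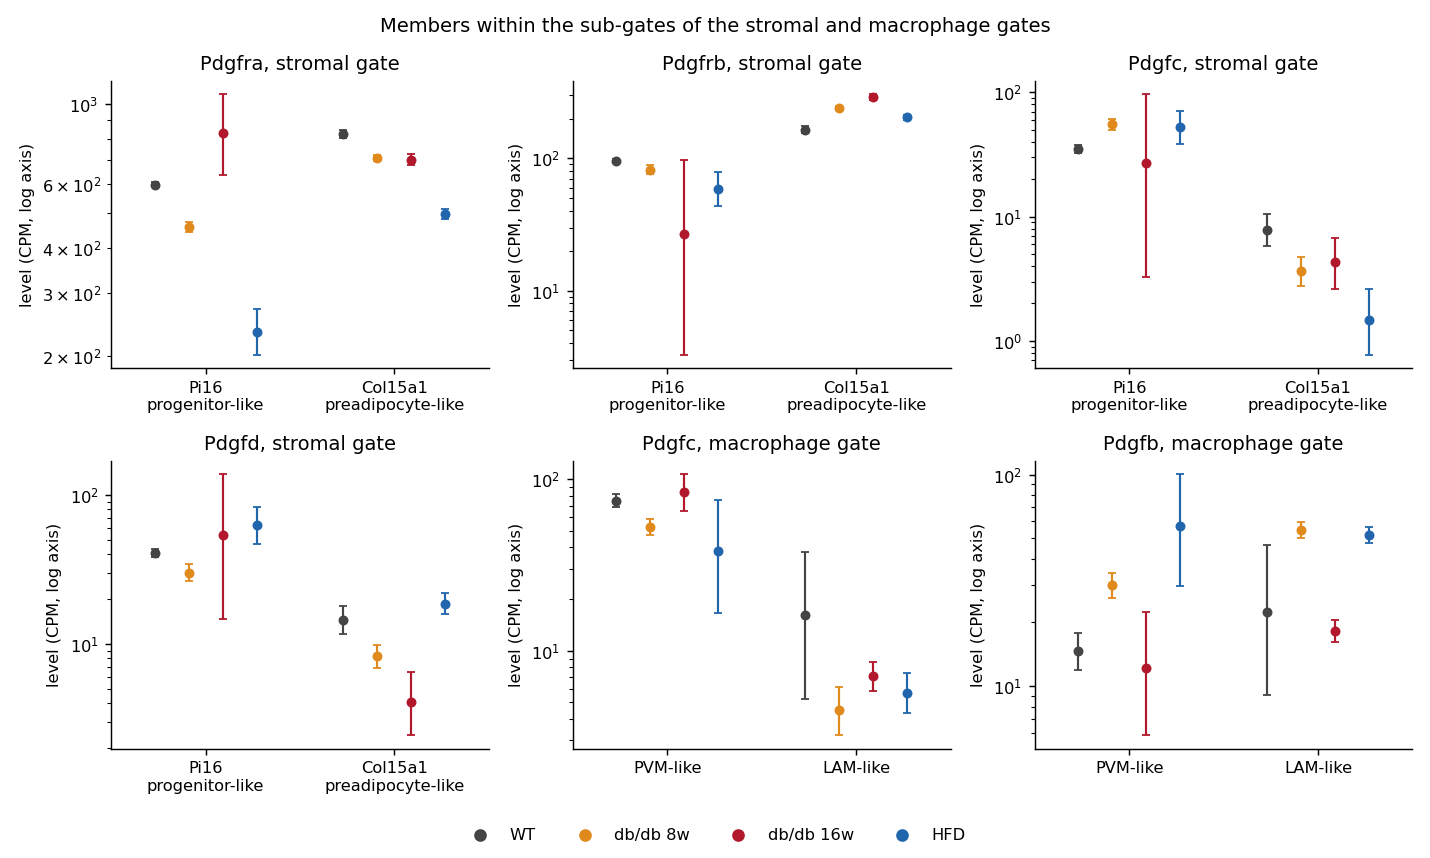
Level in CPM (log axis) with 95% counting intervals in the sub-gates, by library. Pdgfrb is above WT in the Col15a1 preadipocyte-like cells of the 3 obese libraries. Pdgfc is higher in PVM-like than in LAM-like cells of every library. It is also higher in Pi16 progenitor-like than in Col15a1 preadipocyte-like cells, except in 16-week db/db, where 2 UMIs allow no comparison.

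Next, the ligands made by macrophages were examined. Pdgfb was 16.9 CPM in the macrophage-gated cells of WT (137 UMIs), 44.0 CPM in 8-week db/db (846 UMIs), 18.4 CPM in 16-week db/db (335 UMIs) and 49.3 CPM in HFD (613 UMIs). It was more than 2-fold higher than in WT in 8-week db/db and HFD and near WT in 16-week db/db. The log2 ratio to WT was 1.38 (1.12 to 1.65), 0.13 (-0.16 to 0.43) and 1.55 (1.28 to 1.83). Pdgfa had the same order of libraries, with 9.97 CPM in WT (81 UMIs), 23.6 CPM in 8-week db/db (454 UMIs), 12.5 CPM in 16-week db/db (227 UMIs) and 29.0 CPM in HFD (360 UMIs). Its log2 ratio to WT was 1.24 (0.90 to 1.60), 0.33 (-0.05 to 0.71) and 1.54 (1.19 to 1.90), and that of 8-week db/db was 0.66 with every cell thinned to 1000 UMIs. Between the db/db ages, the log2 ratio of 16-week db/db over 8-week db/db was -1.25 (-1.44 to -1.07) for Pdgfb and -0.92 (-1.15 to -0.68) for Pdgfa. After thinning, 1.78% of macrophage-gated cells in WT held a Pdgfb UMI, against 3.59% in 8-week db/db, 2.29% in 16-week db/db and 4.02% in HFD (unthinned 7.79%, 17.4%, 10.3% and 24.6%).

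Endothelial RNA was present in these cells, at 4.43 CPM of the endothelial list in WT, 18.8 and 33.3 CPM in the younger and older db/db mice and 179 CPM in HFD. Per 1000 endothelial-list UMIs of HFD, macrophage-gated cells held 276 Pdgfb UMIs and endothelial-gated cells 35.7. The macrophages were then divided into lipid-associated macrophage-like (LAM-like: Trem2, Gpnmb, Cd9, Spp1, Mmp12, Itgax) and perivascular macrophage-like cells (PVM-like: Lyve1, Folr2, Cd163, Timd4, Cd209f). PVM-like cells were 84.3% of macrophage-gated cells in WT, 49.1% in 8-week db/db, 9.33% in 16-week db/db and 2.80% in HFD (48 cells), and LAM-like cells were 2.18% (26 cells), 29.8%, 71.4% and 73.2%. Pdgfb was higher than in WT in both kinds of cell in 8-week db/db. In PVM-like cells it was 14.7 CPM in WT, 30.04 CPM in 8-week db/db, 12.2 CPM in 16-week db/db (10 UMIs) and 57.4 CPM in HFD (12 UMIs). In LAM-like cells it was 22.5 CPM in WT (7 UMIs), 54.6 CPM in 8-week db/db, 18.3 CPM in 16-week db/db and 51.6 CPM in HFD. The low level of 16-week db/db was thus present within LAM-like cells, where the log2 ratio to 8-week db/db was -1.58 (-1.79 to -1.37). With the sub-gates weighted as in WT the log2 ratio of Pdgfb to WT became 0.97 in 8-week db/db and -0.28 in 16-week db/db.

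Pdgfc, a latent ligand of PDGFRα, was lower than WT in the macrophage-gated cells of all 3 obese libraries. It was 65.0 CPM in the macrophage-gated cells of WT (528 UMIs), 23.5 CPM in 8-week db/db (451 UMIs), 13.0 CPM in 16-week db/db (236 UMIs) and 8.29 CPM in HFD (103 UMIs). The 4 intervals did not overlap, and each obese library was more than 2-fold below WT, with log2 ratios of -1.47 (-1.66 to -1.29), -2.32 (-2.55 to -2.10) and -2.97 (-3.29 to -2.66). With every cell thinned to 1000 UMIs the ratio was -0.98 in 8-week db/db, short of 2-fold, and -1.44 in 16-week db/db, where the unweighted mean of per-cell CPM gave -1.40. The level was higher in PVM-like than in LAM-like cells of every library. They held 74.8 CPM in WT, 52.5 CPM in 8-week db/db, 84.2 CPM in 16-week db/db (69 UMIs) and 38.2 CPM in HFD (8 UMIs), while LAM-like cells held 16.1 CPM in WT (5 UMIs), 4.49 CPM in 8-week db/db, 7.101 CPM in 16-week db/db and 5.70 CPM in HFD. Within 1 library, PVM-like cells were 11.7-fold (8.42 to 16.6) above LAM-like cells in 8-week db/db and 11.9-fold (8.65 to 16.2) in 16-week db/db. Within PVM-like cells the log2 ratio to WT was -0.51 (-0.71 to -0.31) in 8-week db/db, 0.17 (-0.21 to 0.54) in 16-week db/db and -0.97 (-2.19 to 0.02) in HFD. The intervals within PVM-like cells thus covered the level of WT in 16-week db/db and, by a small margin and with 8 UMIs, in HFD. With the sub-gates weighted as in WT the log2 ratios to WT became -0.52, 0.19 and -0.92.

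Of the other members, macrophage-gated cells held 6, 2, 2 and 22 Pdgfd UMIs in WT, 8-week db/db, 16-week db/db and HFD. The receptors were low there. Pdgfra gave 14.8, 6.29, 0.385 and 3.94 CPM in the same order, and stromal-list genes gave 664, 282, 17.8 and 229 CPM. Pdgfrb gave 2.59, 2.55, 0.385 and 4.27 CPM (21, 49, 7 and 53 UMIs). Per 1000 stromal-list UMIs, Pdgfra came to 22.2, 22.3, 21.7 and 17.2 in macrophage-gated cells and to 20.2, 21.3, 21.7 and 16.8 in stromal-gated cells, nearly the same ratio within each library. This did not hold for Pdgfrb. It came to 3.89, 9.04, 21.7 and 18.6 in macrophage-gated cells and to 3.40, 6.19, 8.80 and 6.73 in stromal-gated cells. The source of these Pdgfrb UMIs was not tested.

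Counted over all members with at least 30 UMIs in both libraries together, 2 of 5 were at least 2-fold higher in macrophage-gated cells in 8-week db/db (Pdgfa and Pdgfb), against 7.30% of all genes, and 2 were at least 2-fold lower (Pdgfc and Pdgfra), against 8.01%. In 16-week db/db, 0 of 4 were higher, against 20.1% of all genes, and the same 2 genes were lower, against 25.7%. In HFD, Pdgfa and Pdgfb were higher and Pdgfc and Pdgfra lower, of 5, against 17.0% and 11.2%. The calls of Pdgfra rest on 120 UMIs in WT against 121 in 8-week db/db, 7 in 16-week db/db and 49 in HFD. Stromal-list genes were lower in the same libraries, at 664 CPM in WT, then 282, 17.8 and 229 CPM. The part of this stromal RNA in the calls of Pdgfra was not tested. The median log2 ratio of all genes was -0.02, -0.15 and 0.18 in these comparisons, so the ratios of HFD macrophages sat on a general shift upward and those of 16-week db/db on a shift downward.

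Endothelial-gated cells carried Pdgfb at a level several times that of macrophages. It was 396 CPM in WT (7 UMIs in 9 cells), 281 CPM in 8-week db/db (49 UMIs in 75 cells), 218 CPM in 16-week db/db (368 UMIs) and 245 CPM in HFD (1465 UMIs). The interval of WT, 159 to 815 CPM, covered the values of the other libraries. Only 16-week db/db and HFD held enough cells for a comparison, and the log2 ratio of 16-week db/db over HFD was -0.17 (-0.34 to -0.00332), while the median of all genes was -0.38. Pdgfb was thus slightly lower in 16-week db/db as measured and lay above the median of all genes. With cells of at least 2000 UMIs the ratio of Pdgfb was -0.51, so its place against the other genes was not settled. After thinning, which left out 632 of 1305 endothelial-gated cells in 16-week db/db and 2 in HFD, 19.0% and 23.0% of cells held a Pdgfb UMI (unthinned 23.6% and 61.6%).

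The other endothelial ligand was Pdgfd, with 23.1 CPM in 16-week db/db (39 UMIs) and 44.6 CPM in HFD (267 UMIs), a log2 ratio of -0.95 (-1.48 to -0.46). Pdgfa gave 2.96 CPM (5 UMIs) and 12.2 CPM (73 UMIs), a log2 ratio of -2.04 (-3.71 to -0.76), and Pdgfc 0 and 3 UMIs. In HFD, the 26 arterial-like cells (Gja5, Gja4, Hey1, Sox17, Sema3g) held less Pdgfb and more Pdgfd than the 1122 capillary-like cells (Gpihbp1, Rgcc, Car4, Cd300lg, Btnl9): Pdgfb was 117 against 247 CPM, and Pdgfd 106 against 40.5 CPM. The intervals of both log2 ratios, -1.07 (-2.14 to -0.19) and 1.38 (0.23 to 2.33), were wide. The arterial-like values of HFD rest on 10 Pdgfb and 9 Pdgfd UMIs. In 16-week db/db Pdgfb was not lower in arterial-like cells, with 278 CPM (5 UMIs in 18 cells) against 218 CPM in capillary-like cells. That log2 ratio was 0.35 (-1.28 to 1.58). Of 5 members with enough UMIs, 3 were at least 2-fold lower in 16-week db/db than in HFD (Pdgfa, Pdgfra and Pdgfrb), against 25.7% of all genes. In the other direction 0 were higher, against 5.82%. The call of Pdgfra rests on 5 and 38 UMIs, with a log2 ratio of -1.10 (-2.80 to 0.25) whose interval included 0. Stromal-list genes stood at 76.9 and 334 CPM in these cells, and their part in Pdgfra was not tested. Pdgfrb stood at 3.55 CPM in 16-week db/db and 20.9 CPM in HFD in these cells, where mural-list genes stood at 242 and 466 CPM.

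Next, the ligands of stromal cells were examined, beginning with Pdgfc and Pdgfd. The promoters of these 2 genes are shown because their levels differed together between the stromal sub-gates; they are RefSeq sequences (GRCm38.p6) from 250 bases before to 50 after the start that RefSeq gives, on the plus strand, at chr3:81036166-81036465 and chr9:6168236-6168535. For Pdgfd the GENCODE start, 6168584, lies beyond the end of this window. Capitals mark matches on either strand to the motifs GGGCGG (the GC box), TATAAA (the TATA box), CCAAT and TGANTCA (the AP-1 site), which 35.7%, 13.6%, 37.4% and 7.81% of 32851 such windows hold.
Pdgfc: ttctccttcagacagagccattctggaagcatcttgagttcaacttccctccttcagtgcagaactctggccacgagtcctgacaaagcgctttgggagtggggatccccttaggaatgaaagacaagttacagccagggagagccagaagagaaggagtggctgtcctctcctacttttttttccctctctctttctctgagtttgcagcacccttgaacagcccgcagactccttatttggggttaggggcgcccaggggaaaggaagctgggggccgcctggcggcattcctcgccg
Pdgfd: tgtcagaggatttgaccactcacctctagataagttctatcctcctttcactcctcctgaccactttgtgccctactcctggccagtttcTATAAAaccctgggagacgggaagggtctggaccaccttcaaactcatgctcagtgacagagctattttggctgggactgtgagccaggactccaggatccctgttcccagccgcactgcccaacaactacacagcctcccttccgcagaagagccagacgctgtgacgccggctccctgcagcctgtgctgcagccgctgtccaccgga
The Pdgfd window held 1 TATAAA and no other match, and the Pdgfc window held none of the 4 motifs. This TATAAA begins at base 91 of a window whose first 250 bases precede the RefSeq start, so it lies well upstream of that start. The assay reads the 3′ ends of transcripts and does not show which start was used.

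In stromal-gated cells Pdgfc was 29.2 CPM in WT (1028 UMIs), 19.6 CPM in 8-week db/db (568 UMIs), 4.77 CPM in 16-week db/db (22 UMIs) and 6.11 CPM in HFD (57 UMIs). Pdgfd was 33.9 CPM in WT (1192 UMIs), 15.2 CPM in 8-week db/db (439 UMIs), 4.77 CPM in 16-week db/db (22 UMIs) and 23.1 CPM in HFD (215 UMIs). WT was the highest for both genes, and HFD lay far below WT for Pdgfc and less far for Pdgfd. The log2 ratios to WT were -0.57 (-0.72 to -0.42), -2.61 (-3.29 to -2.01) and -2.26 (-2.67 to -1.87) for Pdgfc and -1.16 (-1.32 to -0.99996), -2.83 (-3.51 to -2.22) and -0.55 (-0.77 to -0.34) for Pdgfd.

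Both ligands were higher in Pi16 progenitor-like than in Col15a1 preadipocyte-like cells, apart from Pdgfc in 16-week db/db, where 2 UMIs in Pi16 progenitor-like cells allow no comparison. Pdgfc was 35.0 CPM in the Pi16 progenitor-like cells of WT, 55.1 CPM in 8-week db/db, 26.8 CPM in 16-week db/db (2 UMIs) and 52.8 CPM in HFD (42 UMIs), against 7.85, 3.64, 4.34 and 1.48 CPM in Col15a1 preadipocyte-like cells. The fold between the sub-gates was 4.46 (3.32 to 6.11) in WT, 15.1 (11.5 to 20.2) in 8-week db/db and 35.6 (18.4 to 74.3) in HFD. Within Pi16 progenitor-like cells Pdgfc was therefore not below WT in 8-week db/db and HFD but above it, with log2 ratios of 0.65 (0.49 to 0.82) and 0.59 (0.11 to 1.04), while within Col15a1 preadipocyte-like cells it was below WT, with log2 ratios of -1.11 (-1.69 to -0.52), -0.86 (-1.71 to -0.06) and -2.40 (-3.45 to -1.47). Pdgfd was 40.6, 30.02, 53.5 (4 UMIs) and 62.8 CPM in Pi16 progenitor-like cells against 14.5, 8.27, 4.11 and 18.7 CPM in Col15a1 preadipocyte-like cells. It was below WT in both sub-gates in 8-week db/db, with log2 ratios of -0.43 (-0.64 to -0.23) and -0.81 (-1.21 to -0.41). In HFD it was above WT in Pi16 progenitor-like cells, with a log2 ratio of 0.63 (0.19 to 1.04). With the sub-gates weighted as in WT, the log2 ratio to WT of the whole stromal gate became 0.51 in 8-week db/db and 0.41 in HFD for Pdgfc, and -0.47 in 8-week db/db, 0.20 in 16-week db/db and 0.61 in HFD for Pdgfd. The value of 16-week db/db rests on 4 Pdgfd UMIs in 31 Pi16 progenitor-like cells, and within its Col15a1 preadipocyte-like cells, 91.6% of that gate, the log2 ratio of Pdgfd to WT was -1.82 (-2.64 to -1.08).

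Pdgfa and Pdgfb were rare in stromal-gated cells, and higher in every obese library than in WT. Pdgfa was 1.28 CPM in WT (45 UMIs), 5.59 CPM in 8-week db/db (162 UMIs), 4.34 CPM in 16-week db/db (20 UMIs) and 8.37 CPM in HFD (78 UMIs). Pdgfb was 0.454 CPM in WT (16 UMIs), 3.45 CPM in 8-week db/db (100 UMIs), 4.34 CPM in 16-week db/db (20 UMIs) and 16.9 CPM in HFD (158 UMIs). RNA of the sender cells moved with them: macrophage-list genes stood at 138, 352, 194 and 433 CPM and endothelial-list genes at 3.21, 22.8, 64.4 and 321 CPM in the stromal-gated cells of WT, 8-week db/db, 16-week db/db and HFD. Per 1000 endothelial-list UMIs, Pdgfb came to 142, 151, 67.3 and 52.8 UMIs in stromal-gated cells in the same order. In endothelial-gated cells it came to 40.7 (7 UMIs), 38.0, 28.1 and 35.7. The part of this RNA in the stromal Pdgfa and Pdgfb levels was not tested. After thinning, the share of stromal-gated cells with a Pdgfb UMI was 0.0469%, 0.406%, 0.371% and 1.21% in the same order. The WT share rests on 2 of 4260 cells, under the floor of 3 cells. Of lymphoid-gated cells 0%, 0%, 2.22% (1 of 45) and 3.33% (1 of 30) held one. The lymphoid-gated cells were too few to set a background for stromal Pdgfb shares of this size.

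**Figure D4:**
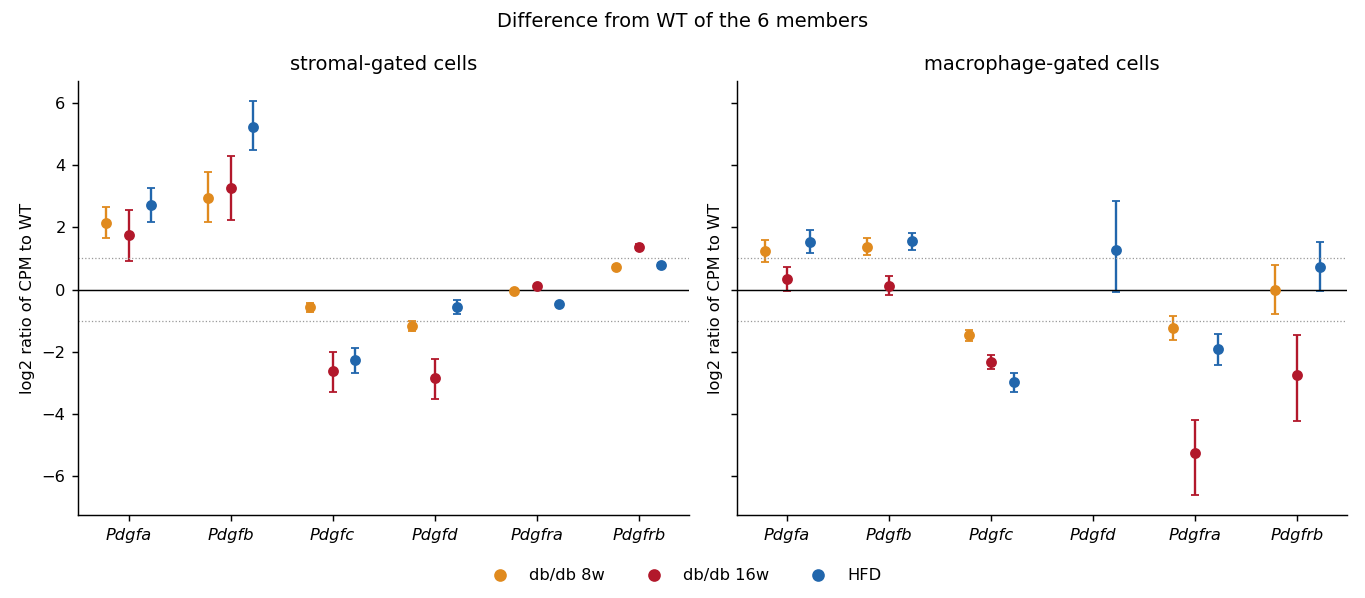
Log2 ratio of CPM to WT for the 6 genes in stromal-gated (left) and macrophage-gated cells (right), with 95% counting intervals; dotted lines mark 2-fold, and ratios resting on 3 or fewer UMIs in a library are not drawn. Pdgfc is below WT in all 6 comparisons, and Pdgfrb is above WT in the 3 stromal ones.

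Of the 6 genes in stromal-gated cells, 2 were at least 2-fold higher in 8-week db/db (Pdgfa and Pdgfb) and 1 at least 2-fold lower (Pdgfd), against 9.21% and 4.01% of all genes. In 16-week db/db, 3 were higher (Pdgfa, Pdgfb and Pdgfrb) and 2 lower (Pdgfc and Pdgfd), against 14.5% and 19.2%. In HFD, 2 were higher (Pdgfa and Pdgfb) and 1 lower (Pdgfc), against 15.4% and 8.88%. The median log2 ratio of all genes was 0.03, -0.08 and 0.10.

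Finally, 34 other genes of the PDGF pathway were read in the same cells. In stromal-gated cells 1 was at least 2-fold higher and 1 at least 2-fold lower in 8-week db/db, 1 and 10 in 16-week db/db, and 2 and 4 in HFD, with medians of the log2 ratio to WT of 0.02, -0.26 and 0.04. Of all genes, 9.21% were higher and 4.01% lower in 8-week db/db, 14.5% and 19.2% in 16-week db/db, and 15.4% and 8.88% in HFD. Past 2-fold in the same direction in all 3 comparisons were Thbs1, the matrix protein thrombospondin 1, which was higher (24.7 CPM in WT, then 198, 118 and 232 CPM), and Myc, an early response gene downstream of growth factors, which was lower (113 CPM in WT, then 51.3, 24.7 and 44.1 CPM). The signalling proteins next to the receptors stayed near WT in stromal-gated cells: of 12, 0 were past 2-fold in 8-week db/db and HFD and 1 was lower in 16-week db/db. Of the 5 activating proteases, which include Plat, the activator of PDGF-C, and Plau, an activator of PDGF-D, 0 were past 2-fold in 8-week db/db, 3 were lower in 16-week db/db (Plat, Pcsk5 and Pcsk6) and 2 in HFD (Plat and Pcsk6). In endothelial-gated cells 2 of 32 pathway genes were at least 2-fold higher in 16-week db/db than in HFD and 14 lower, against 5.82% and 25.7% of all genes, with a median of -0.78 against -0.38 for all genes. In stromal-gated cells Plat had log2 ratios to WT of -0.57, -2.15 and -1.15.

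In macrophage-gated cells 4 of 34 pathway genes were at least 2-fold higher and 1 lower in 8-week db/db, 2 and 16 of 33 in 16-week db/db, and 3 and 6 of 33 in HFD, with medians of 0.05, -0.79 and 0.12. The shares of all genes were 7.30% higher and 8.01% lower in 8-week db/db, 20.1% and 25.7% in 16-week db/db, and 17.0% and 11.2% in HFD. Of the 5 early response genes, 2 were higher and 1 lower in 8-week db/db, 4 were lower in 16-week db/db and 2 in HFD. The only gene of the list past 2-fold in the same direction in all 3 was Lrp1, a scavenger receptor and PDGFRβ partner, at 80.03 CPM in WT, 240 CPM in 8-week db/db, 401 CPM in 16-week db/db and 424 CPM in HFD.

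**Figure D5:**
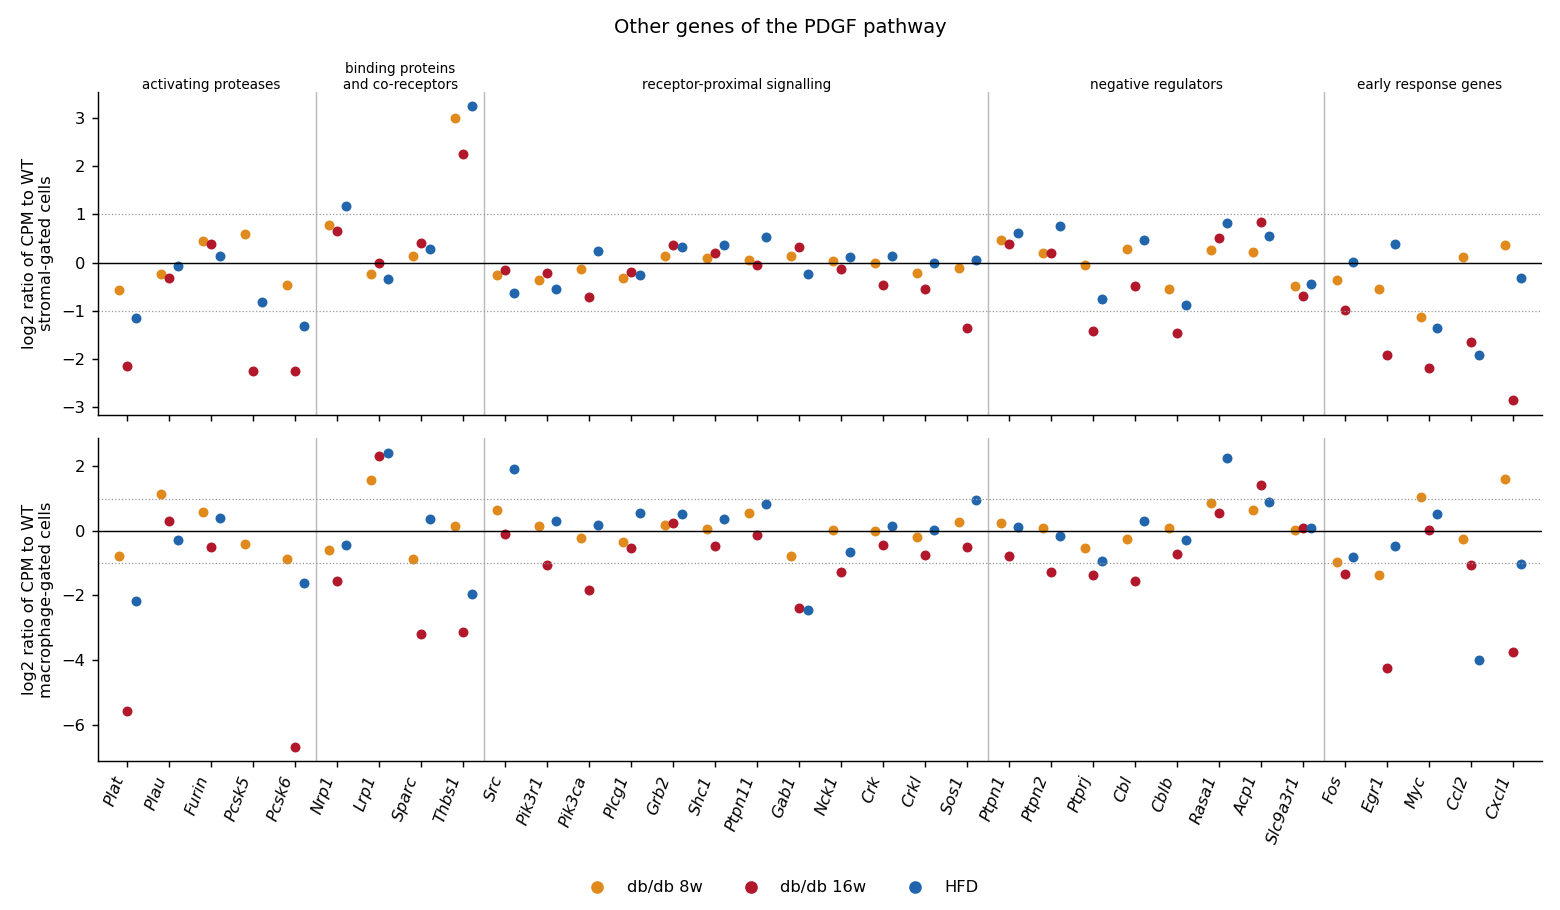
Log2 ratio of CPM to WT for 34 other genes of the pathway, grouped by role, in stromal-gated (top) and macrophage-gated cells (bottom); points are the 3 obese libraries, dotted lines mark 2-fold, and genes under 30 UMIs in both libraries together are not drawn. Thbs1 (stromal) and Lrp1 (macrophage) lie above 2-fold in all 3 libraries, and Myc (stromal) below.

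The genes whose levels ran most like those of each member were read over the 13 library-by-gate groups of at least 50 cells, among 9815 genes outside the gate lists. These groups share libraries and differ mainly in cell type, so the correlations are descriptions. Pdgfra ran with Adamts2, Cd248 and Bicc1 (Pearson r of log2 levels 0.996, 0.991 and 0.989), and Pdgfrb with Bmpr1a, Pde3a and Crispld2 (0.986, 0.979 and 0.978). Pdgfa ran with Sft2d1, Slc37a2 and Lonrf3 (0.938, 0.935 and 0.932), Pdgfb with Cd93, Scarb1 and Plxna4 (0.966, 0.956 and 0.939), Pdgfc with Reps2, Il18 and Selenbp1 (0.946, 0.944 and 0.943), and Pdgfd with Tmtc1, Fam13c and Fbxl7 (0.978 for all 3). Among the members themselves, the receptors ran together (0.932), while Pdgfb ran against both of them (-0.53 with Pdgfra and -0.49 with Pdgfrb). No mural-gated group reached 50 cells, so the gate with the highest Pdgfrb levels was not among the 13 groups. The genes lie on chromosomes 5 (Pdgfa, 138976014 to 138997370, minus strand, and Pdgfra, 75152292 to 75198215, plus), 15 (Pdgfb, 79995874 to 80014977, minus), 3 (Pdgfc, 81036416 to 81214040, plus), 9 (Pdgfd, 6168584 to 6378850, plus) and 18 (Pdgfrb, 61045150 to 61085061, plus) of GRCm38, all annotated as protein-coding.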

How the data were processed

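Single-cell 10x libraries of BAT SVF were aligned and counted by the authors with Cell Ranger (version 7.1.0 in the study's processing notes, 6.0.0 in the matrix headers) on mm10. The deposited files hold raw UMI counts per gene and called barcode, 1 matrix per library and group. After the study's limits, a cell was kept if its detected genes lay between 250 and 6000 and its UMIs between 500 and 30000, with less than 15% of them mitochondrial. Kept cells held 26558173 to 53420105 UMIs per library, with medians of 2733 to 6218.5 per cell.

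A cell entered a gate with at least 3 UMIs over its marker list and at least 3 times the UMIs of every other list (mural over stromal: 1 time); 3598 cells stayed ungated. Sub-gates needed at least 2 UMIs of their list (capillary-like: 3) and 3 times those of the opposing list (arterial-like: no fewer). Doublets were not removed, except in an alternative with Scrublet scores (scanpy 1.11.5). Counts were summed per library and gate and divided by all UMIs there (CPM), with exact Poisson intervals. Log2 ratios have exact conditional binomial intervals, and shares of cells exact Clopper-Pearson ones. All cover counting error only. No test across groups was possible with single libraries, "2-fold" is a size and not a test result, and at or under 3 UMIs in a library no ratio of a member was read. Counts of pathway genes and shares of all genes past 2-fold are over genes with at least 30 UMIs in both libraries together. They had no floor for a single library, so Pcsk6 in the macrophage-gated cells of 16-week db/db was counted with 1 UMI against 46 in WT. Scripts ran in Python 3.11.15 (numpy 2.4.6, scipy 1.17.1) and were tested on simulated data.

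Named genes are the 6 members, pathway genes at least 2-fold in 1 direction in all 3 comparisons with WT (stromal or macrophage gate), the 3 genes with the most similar log2(CPM + 1) profile per member, and gate markers. Pcsk5, Pcsk6 and Plat were named after their values were seen, and the promoters and motifs were chosen then too. The members and lists were chosen with earlier results of these data known. Coordinates are from GENCODE M21 on GRCm38; 4 of the 6 members matched an entry of the promoter table.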

Additional observations from a re-analysis of the deposited data

Results flagged for a closer look

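Pdgfra in stromal-gated cells was marked because the db/db ages lay on opposite sides of WT, each with a counting interval clear of 0: as log2 ratios to WT the younger mice stood at -0.06 and the older at 0.10, and the log2 ratio of 16-week db/db over 8-week db/db was 0.16 (0.11 to 0.22). Each age is 1 library, so the difference was not tested against the spread between animals. Within Col15a1 preadipocyte-like cells the same ratio was -0.01 (-0.07 to 0.04). No group held the number of samples needed to look for a sample far from the others.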

How the results depend on the processing

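No paired analysis was possible because each group holds 1 library, and for the same reason no replicate could be left out. Of 227 recomputed log2 ratios (31 ratios under up to 8 alternatives), 182 stayed within the counting interval of the reported value, 41 left it and 4, each over 2-fold as reported, changed direction (reversed below). In all, 9 values had the opposite sign to the reported one, 7 of them under the weighting by WT's sub-gates; 7 and, for the weighting by WT's sub-gates, 11 more were not given because a count was at or under 3 UMIs. The cause of these shifts was not tested. A gate minimum of 6 UMIs moved none, and a purity of 6 times moved Pdgfra in stromal HFD (-0.42). Without the mitochondrial limit stromal HFD had -0.54 for Pdgfra and 0.69 for Pdgfrb. With predicted doublets removed (5.57% to 15.4% of cells), stromal Pdgfra was -0.022 in 8-week db/db, 0.22 in 16-week db/db and -0.37 in HFD, and stromal Pdgfrb 1.498 in 16-week db/db and 0.87 in HFD. With cells of at least 2000 UMIs, endothelial Pdgfb was -0.51 in 16-week db/db over HFD. As the unweighted mean of per-cell CPM, stromal Pdgfra was -0.22, 0.18 and -0.59 in 8-week db/db, 16-week db/db and HFD, stromal Pdgfrb 0.46 in 8-week db/db and 0.55 in HFD, stromal Pdgfd -1.34 in 8-week db/db, stromal Pdgfb 4.33 in HFD, macrophage Pdgfb 0.49 in 16-week db/db, macrophage Pdgfc -1.12 in 8-week db/db and -1.40 in 16-week db/db, and macrophage Pdgfd -0.17 in HFD, reversed from 1.26 (-0.09 to 2.85). Thinned to 1000 UMIs, stromal Pdgfra was -0.54 in HFD, stromal Pdgfrb 0.54, 1.23 and 0.42 in 8-week db/db, 16-week db/db and HFD, stromal Pdgfd -1.37 in 8-week db/db, macrophage Pdgfa 0.66 in 8-week db/db, macrophage Pdgfb 1.05 in 8-week db/db and 1.10 in HFD, and macrophage Pdgfc -0.98 in 8-week db/db and -1.44 in 16-week db/db. The weighting by WT's sub-gates, added after seeing the data, gave stromal Pdgfra -0.33, 0.28 and -1.12 in 8-week db/db, 16-week db/db and HFD, stromal Pdgfrb 0.081 in 8-week db/db and -0.27 in HFD, stromal Pdgfc 0.51 in 8-week db/db and 0.41 in HFD (reversed), stromal Pdgfd -0.47 in 8-week db/db, 0.20 in 16-week db/db (reversed) and 0.61 in HFD, macrophage Pdgfb 0.97 in 8-week db/db and -0.28 in 16-week db/db, and macrophage Pdgfc -0.52, 0.19 (reversed) and -0.92 in 8-week db/db, 16-week db/db and HFD. Its strata were small in places (26 LAM-like cells in WT, 31 Pi16 progenitor-like cells in 16-week db/db, 48 PVM-like cells in HFD). At 2000 UMIs per cell in place of 1000, 68.3%, 66.4%, 72.9% and 57.3% of stromal-gated cells in WT, the younger and older db/db mice and HFD held a Pdgfra UMI and 21.9%, 29.7%, 38.4% and 30.4% a Pdgfrb UMI, in the order of the shares at 1000. With genes of at least 100 UMIs, each share of all genes past 2-fold stayed within 1.5 times the reported one.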
